A study of Mus musculus with 16 samples.

Results

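The TCRβ repertoires of tumor T cells from mice given anti-PD-1 alone were compared with those of control mice, to ask whether checkpoint blockade changes which T cell receptors make up the infiltrate. The comparison takes 8 of the 16 samples in the series, 4 from anti-PD-1 mice and 4 from control mice, and was made on productive rearrangements, which are those in frame and without a stop codon. All mice were female C57BL/6 with subcutaneous KPC.Luc tumors, a mouse pancreatic ductal adenocarcinoma line that carries luciferase. Anti-PD-1 mice received anti-PD-1 antibody and scrambled peptide, and control mice received isotype IgG and scrambled peptide, with 200 µg of antibody every 3 days and 10 µg of peptide every day over 10 days. The other 8 samples came from mice given the VIP receptor antagonist ANT008 with IgG, or ANT008 with anti-PD-1 (combination), at the same doses. Each sample was 1 mouse and is labeled as T cells. The paper describes magnetic selection on CD90.2 for the T cells of its Nanostring assay. For TCR sequencing it names tumors as the source and no such selection. Only TCRβ sequences were read, so the label of T cells could not be set against other markers, and CD4 and CD8 cells were not told apart.

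PD-1 is an inhibitory receptor that T cells carry after activation, and its ligands in a tumor dampen signals through the T cell receptor. The β chain of that receptor is assembled in the thymus from V, D and J gene segments. Nucleases first trim the ends of the segments (deletions), and terminal transferase adds untemplated bases between them (insertions), so that the joint, the CDR3, differs between T cell clones. A clone keeps its joint when it divides. A difference counted over templates, the molecules estimated by the assay, therefore weighs clones by their size, whereas a difference counted over rearrangements takes each joint a single time. Of the V genes here, Trbv13-2, Trbv29 and Trbv1 are those paired with the invariant α chain of mouse NKT cells.

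The 4 anti-PD-1 samples differed widely in depth. Productive templates numbered 32193, 31598, 72588 and 7180 in anti-PD-1 replicates 1 to 4, and 26005, 41224, 38116 and 37285 in control replicates 1 to 4. Replicate 3 of anti-PD-1 was the deepest and replicate 4 the shallowest of all 16 samples. They held 13939 and 2526 unique productive rearrangements, against 3868 to 10062 in control mice. A rearrangement not seen could still have made up to 0.0418% of productive templates in anti-PD-1 replicate 4 and up to 0.00413% in replicate 3, counting 3 templates as the limit. Out-of-frame rearrangements, which are carried along by cells whose other allele is productive, made up 22.9% to 35.9% of templates. Results were therefore also computed at an equal depth of 7180 templates and without anti-PD-1 replicates 3 and 4. In bulk samples such as these, fewer T cells and less template per T cell cannot be told apart.

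**Figure D1:**
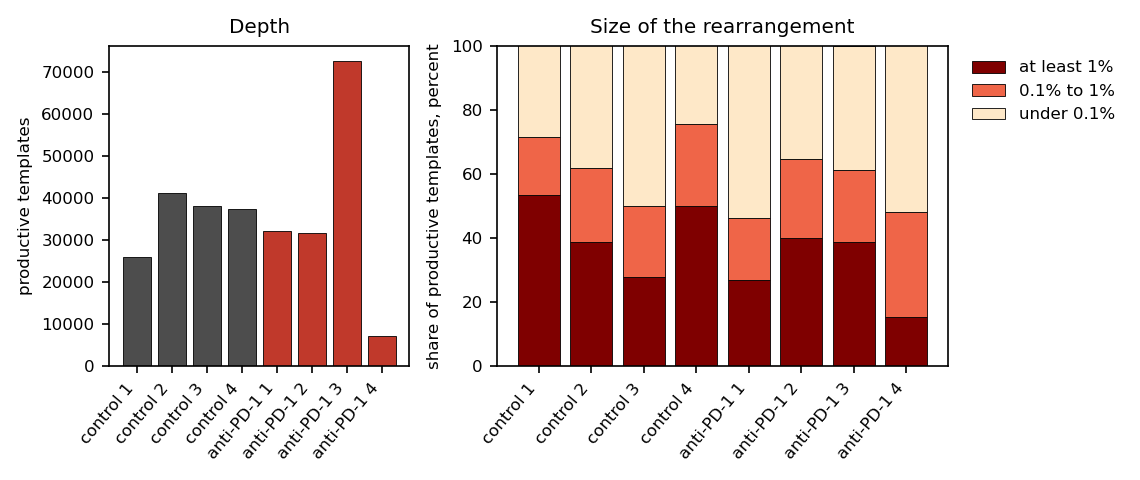
Left, productive templates in each control (grey) and anti-PD-1 (red) sample, from 7180 to 72588. Right, the percent of productive templates that belonged to rearrangements of at least 1%, of 0.1% to 1% and under 0.1% of the sample; the class of at least 1% held 27.7% to 53.4% in control mice and 15.2% to 39.9% in anti-PD-1 mice.

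Joints of large clones are shown here for Trbv14, to show what V trimming looks like in the sequence; it was the V gene of the most frequent rearrangement in 3 of the 4 anti-PD-1 mice and in 1 control mouse. Each line gives the CDR3 from the first base of its conserved cysteine codon to the base before its last codon, 5′ to 3′, as the deposited entries have it. Capitals mark the bases that came from the V gene, and lower case marks the D, J and inserted bases. The untrimmed Trbv14 end was 16 bases long, so that a run of 11 capitals means 5 deleted V bases.
Untrimmed end of Trbv14: TGTGCCAGCAGTTTCT
Control replicate 1, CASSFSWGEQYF, Trbj2-7: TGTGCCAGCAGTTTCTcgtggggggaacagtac
Control replicate 4, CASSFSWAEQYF, Trbj2-7: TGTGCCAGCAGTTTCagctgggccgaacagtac
Anti-PD-1 replicate 1, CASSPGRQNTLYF, Trbj2-4: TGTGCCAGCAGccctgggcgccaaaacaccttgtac
Anti-PD-1 replicate 2, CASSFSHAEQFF, Trbj2-1: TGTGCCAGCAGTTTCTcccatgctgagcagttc
Anti-PD-1 replicate 3, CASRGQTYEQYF, Trbj2-7: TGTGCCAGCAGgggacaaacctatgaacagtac

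The 2 control joints took 14.3% (95% Wilson interval 13.9% to 14.8%) and 8.19% (7.91% to 8.47%) of productive templates in their samples, with 0 and 1 V bases deleted. The 3 anti-PD-1 joints took 17.5% (17.1% to 17.9%), 5.51% (5.26% to 5.77%) and 9.47% (9.26% to 9.68%), with 5, 0 and 5 V bases deleted. In the fourth anti-PD-1 mouse the most frequent rearrangement used Trbv3 and Trbj1-5, and 5 V bases were deleted from it as well.
Anti-PD-1 replicate 4, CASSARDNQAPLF, Trbv3 and Trbj1-5: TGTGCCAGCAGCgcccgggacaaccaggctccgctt
The leading joints of control replicates 2 and 3 used Trbv1 and Trbv5, and 0 and 1 V bases were deleted from them.
Control replicate 2, Trbv1 and Trbj2-2: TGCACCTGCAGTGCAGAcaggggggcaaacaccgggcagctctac
Control replicate 3, Trbv5 and Trbj2-1: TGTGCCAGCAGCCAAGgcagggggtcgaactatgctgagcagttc
Control replicate 4 was led by a joint of Trbv13-2 and Trbj1-2 with 1 deleted V base, at 12.7% of productive templates.
Control replicate 4, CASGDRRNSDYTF, Trbv13-2 and Trbj1-2: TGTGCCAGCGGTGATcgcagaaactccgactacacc
Leading joints with 5 deleted V bases were thus seen in 3 of 4 anti-PD-1 mice, and the leading joints of the 4 control mice had 0 or 1 deleted. The leading joints are single clones, and these counts describe them without a test.

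Over all productive templates, the V genes of anti-PD-1 mice were trimmed further than those of control mice. Mean V bases deleted per template were 1.76, 1.91, 2.02 and 1.95 in control replicates 1 to 4 and 2.81, 2.80, 2.81 and 2.99 in anti-PD-1 replicates 1 to 4. The groups did not overlap, and each anti-PD-1 mouse lay above the highest control mouse. The group means were 1.91 ± 0.112 and 2.85 ± 0.0912 (SD, n = 4), a difference of 0.943 bases (SE 0.122). Under a two-sided Dunnett comparison made exact by permuting all 16 samples among the 4 groups, p was 2.8e-05, and the Benjamini-Hochberg adjusted value over the 30 repertoire measures was 0.000828. Of these 30 measures, 1 had an exact p below the 0.05 threshold, or 3.33%, and it was this one. With only the 8 samples of the comparison, an exact permutation test gave p = 0.0286, the smallest 4 mice against 4 can give, which cannot pass an adjustment over 30 measures. The difference was 0.943 at equal depth and 0.894 without anti-PD-1 replicates 3 and 4 (exact permutation p 0.00133). ANT008 mice, which also received IgG, had 2.15 to 2.72 V bases deleted per template and combination mice 2.45 to 2.57, so that the 4 control mice were the lowest of the 16 samples and the 4 anti-PD-1 mice the highest.

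**Figure D2:**
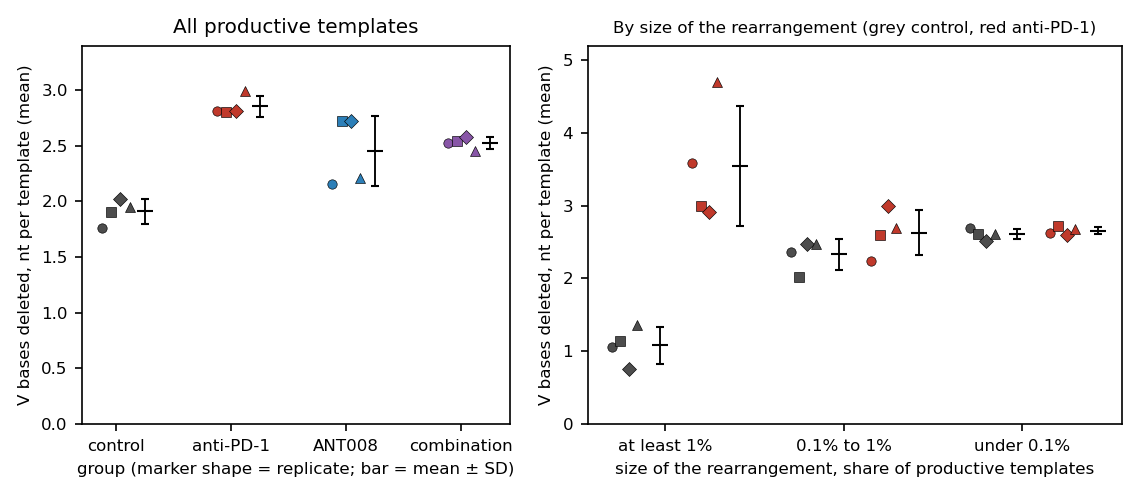
Mean number of V bases deleted per template (vertical axes, nucleotides), with 1 marker per mouse (shape = replicate) and bars for mean ± SD (n = 4). Left, all productive templates in the 4 groups, where control mice lay at 1.76 to 2.02 and anti-PD-1 mice at 2.80 to 2.99. Right, control (grey) and anti-PD-1 (red) mice by the size of the rearrangement, where the groups separated among rearrangements of at least 1% and overlapped in both smaller classes.

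The difference was seen among the large clones. Among rearrangements of at least 1% of productive templates, mean V bases deleted per template were 1.05, 1.15, 0.762 and 1.36 in control replicates 1 to 4 and 3.58, 2.99, 2.92 and 4.70 in anti-PD-1 replicates 1 to 4. No anti-PD-1 mouse lay in the control range, and the difference was 2.47 bases (SE 0.445, exact permutation p 0.000128). In anti-PD-1 replicate 1 the value rested mostly on 1 clone, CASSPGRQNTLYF, with 5 deleted V bases. It held 17.5% of productive templates there, and the whole class held 26.9%. Of the 7 rearrangements of this size in that mouse, 4 had an untrimmed V end. Anti-PD-1 replicate 4, with 5 rearrangements of this size, was the highest. In the class of 0.1% to 1% the ranges overlapped, at 2.02 to 2.48 in control and 2.24 to 2.99 in anti-PD-1 mice, and in the class under 0.1% they were 2.52 to 2.69 and 2.60 to 2.72. Combination mice had 1.93 to 2.62 and ANT008 mice 1.30 to 2.87 in the class of at least 1%. When rearrangements of at least 1% were left out, the difference was 0.157 bases (exact permutation p 0.242), and without the 10 most frequent rearrangements of each sample it was 0.146 (exact permutation p 0.265). Without the single most frequent rearrangement of each sample it was 0.539 (unadjusted exact permutation p 0.0153). The groups then still did not overlap, but by a narrow margin, at 2.332 in control replicate 2 and 2.344 in anti-PD-1 replicate 1. Counted over rearrangements and not templates, mean V deletions were 2.62 ± 0.0572 in control and 2.66 ± 0.0533 in anti-PD-1 mice (SD, n = 4), a difference of 0.042 (SE 0.0312, exact permutation p 0.434).

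By the number of deleted V bases, the groups separated only in the class trimmed most. Templates with 5 or more deleted V bases made up 9.66%, 13.5%, 14.9% and 11.9% in control replicates 1 to 4 and 34.1%, 28.1%, 26.9% and 33.2% in anti-PD-1 replicates 1 to 4. The lowest anti-PD-1 mouse, replicate 3, lay well above the highest control mouse, also replicate 3. The means were 12.5% ± 2.24 and 30.6% ± 3.62 (SD, n = 4). Templates with an untrimmed V end made up 35.2% ± 10.4 and 23.3% ± 2.89, with overlapping ranges of 25.0% to 48.3% in control and 20.3% to 25.9% in anti-PD-1 mice. Those with 1 or 2 deleted V bases made up 30.7% ± 10.0 and 22.3% ± 1.97, and those with 3 or 4 made up 21.6% ± 3.05 and 23.8% ± 4.46. Both of these classes overlapped as well. Counted over rearrangements, the class of 5 or more held 21.7% ± 0.817 and 21.8% ± 0.661. Of the rearrangements of at least 1%, 3 of 48 in control mice and 15 of 43 in anti-PD-1 mice had lost 5 or more V bases, and those 15 came from all 4 anti-PD-1 mice (2, 6, 3 and 4 in replicates 1 to 4). These classes are another view of the same deletions and were not tested on their own.

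**Figure D3:**
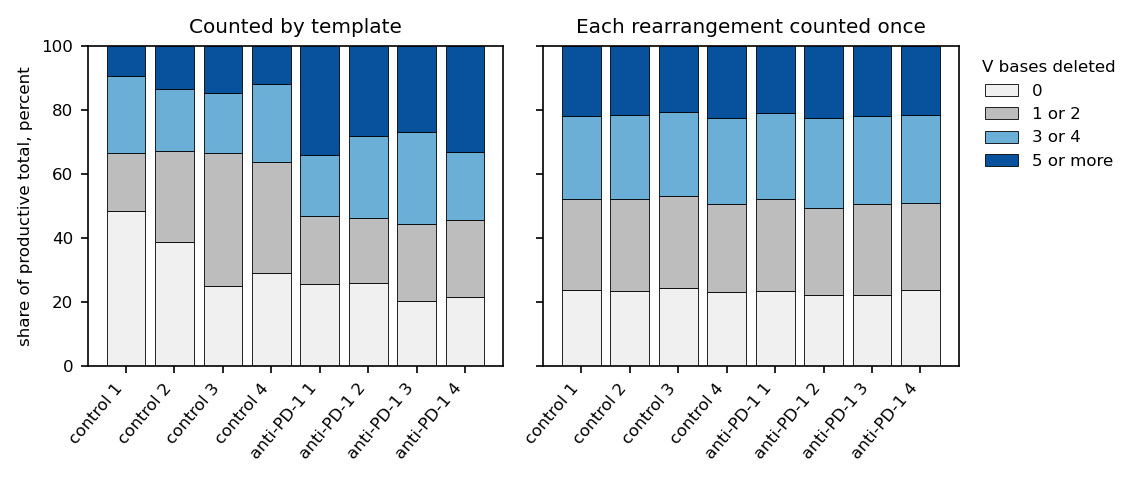
Percent of productive templates (left) and of productive rearrangements, each counted a single time (right), by the number of deleted V bases in each control and anti-PD-1 sample. The dark class of 5 or more holds 26.9% to 34.1% of templates in anti-PD-1 mice and 9.66% to 14.9% in control mice, while the bars on the right hardly differ between samples.

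The difference was also seen when V gene means were allowed for. V genes end at different points and are trimmed to different extents, so each template was also set against the mean deletion of its own V gene over all unique productive rearrangements. On that scale control replicates 1 to 4 lay at -0.878, -0.671, -0.478 and -0.815 bases and anti-PD-1 replicates 1 to 4 at 0.0730, -0.102, 0.0691 and 0.249 bases. Control templates were thus less trimmed than is usual for their V genes, and anti-PD-1 templates were close to it. ANT008 mice lay at -0.625 to 0.0913 and combination mice at -0.255 to -0.0806 on this scale. Both of these groups overlapped the anti-PD-1 range, so lying close to the V gene mean was not particular to anti-PD-1 mice. The difference was 0.783 bases (SE 0.147, exact permutation p 0.000761), and the groups did not overlap. Among the 100 most frequent rearrangements of each sample, each counted a single time, the means were 2.38 ± 0.102 and 2.81 ± 0.0695 (SD, n = 4) without overlap, but the exact permutation p was 0.0784. In out-of-frame templates V deletions were 2.44 ± 0.382 in control and 2.94 ± 0.361 in anti-PD-1 mice (SD, n = 4, exact permutation p 0.0676), and here the ranges overlapped, at 1.95 to 2.81 and 2.51 to 3.39.

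None of the other ends or insertions passed the test, although some differences were larger than the SD within a group. Bases deleted from the 5′ end of the D segment, which faces the V gene, averaged 2.91 ± 0.159 per template in control and 2.46 ± 0.372 in anti-PD-1 mice (SD, n = 4), a difference of -0.453 (SE 0.185, exact permutation p 0.0771). With 1 mouse left out it ran from -0.324 to -0.616, the latter without anti-PD-1 replicate 1 (unadjusted exact permutation p 0.009). At the 3′ end of D the averages were 2.87 ± 0.356 and 3.28 ± 0.334 (SD, n = 4, exact permutation p 0.201), and at the J end 3.09 ± 0.571 and 3.11 ± 0.383 (SD, n = 4, exact permutation p 1). Inserted bases per template were 1.68 ± 0.174 and 1.72 ± 0.333 between V and D, and 1.50 ± 0.246 and 1.56 ± 0.247 between D and J. Per rearrangement, where a large clone weighs no more than a small one, V-D insertions were 1.95, 1.86, 1.89 and 1.84 in control replicates 1 to 4 and 1.77, 1.84, 1.84 and 1.83 in anti-PD-1 replicates 1 to 4. These overlapped by a narrow margin, and the difference of -0.0668 bases (SE 0.0303) had an exact permutation p of 0.108. The D-J insertions per rearrangement differed by -0.0377 bases (SE 0.0173, exact permutation p 0.118). With 1 mouse left out this ran from -0.0281 to -0.056, the latter without control replicate 4 (unadjusted exact permutation p 0.00431). Productive rearrangements without any insertion made up 8.37% ± 0.800 in control and 8.94% ± 0.639 in anti-PD-1 mice (SD, n = 4, exact permutation p 0.463).

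The clone size classes overlapped between the groups. Rearrangements of at least 1% held 53.4%, 38.8%, 27.7% and 49.8% of productive templates in control replicates 1 to 4 and 26.9%, 39.9%, 38.8% and 15.2% in anti-PD-1 replicates 1 to 4. The shallowest sample, anti-PD-1 replicate 4, had the lowest share and control replicate 1 the highest. The difference was -12.2 percentage points (SE 7.22, exact permutation p 0.260), and ran from -7.25 without anti-PD-1 replicate 4 to -17.1 without control replicate 3. There were 8 to 15 such rearrangements in a control mouse and 5 to 17 in an anti-PD-1 mouse. They used 14 V genes over the 4 control mice and 16 over the 4 anti-PD-1 mice, and 5 of their CDR3 amino acid sequences were found among the large clones of both groups. The class of 0.1% to 1% held 22.3% ± 3.18 and 24.9% ± 5.82, and the class under 0.1% held 35.3% ± 11.5 and 45.0% ± 9.29 (SD, n = 4, exact permutation p 0.708 and 0.443). The 10 most frequent rearrangements took 39.9% ± 8.38 and 28.5% ± 6.46 (SD, n = 4, exact permutation p 0.167). Clonality, which is 0 for even clones and 1 for a single clone, was 0.341 ± 0.0572 and 0.259 ± 0.0815 (SD, n = 4, exact permutation p 0.246), a difference of -0.0815 that was -0.0442 without anti-PD-1 replicate 4.

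J gene usage was compared next, and Trbj2-4 took a larger share of templates in anti-PD-1 mice. Of 12 J genes tested, 1 passed the adjusted p of 0.05, or 8.33%, and it was Trbj2-4. It made up 1.90%, 3.76%, 5.11% and 2.78% of productive templates in control replicates 1 to 4 and 23.1%, 5.11%, 5.33% and 6.20% in anti-PD-1 replicates 1 to 4. The lowest anti-PD-1 value exceeded the highest control value by a hair, 5.111% against 5.108%, and anti-PD-1 replicate 1 stood far above the others. The means were 3.39% ± 1.38 and 9.94% ± 8.80 (SD, n = 4), with a log2 fold change of 1.55 (SE 0.47, adjusted p 0.0437 by the edgeR quasi-likelihood test). The Trbv14 joint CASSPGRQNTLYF, printed above, was 75.8% of the Trbj2-4 templates of anti-PD-1 replicate 1. When the leading Trbj2-4 rearrangement of each sample was left out, the remaining Trbj2-4 templates made up 1.78%, 3.00%, 4.21% and 1.88% in control and 5.60%, 4.51%, 4.26% and 5.39% in anti-PD-1 replicates 1 to 4, which again did not overlap. The call was lost without anti-PD-1 replicate 1 (log2 fold change 0.71, adjusted p 0.577), without control replicate 1 (adjusted p 0.182) or 4 (adjusted p 0.144), and without rearrangements of at least 1% (0.30, adjusted p 0.707), all by edgeR. Counted over rearrangements, Trbj2-4 made up 6.73% to 8.18% in control and 7.84% to 8.23% in anti-PD-1 mice (log2 fold change 0.04, edgeR adjusted p 0.856). In out-of-frame templates, Trbj2-4 made up 3.64%, 3.18%, 4.06% and 3.64% in control and 5.77%, 5.23%, 5.30% and 7.46% in anti-PD-1 replicates 1 to 4, without overlap and with a log2 fold change of 0.71 and an adjusted p of 0.0423 from edgeR.

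**Figure D4:**
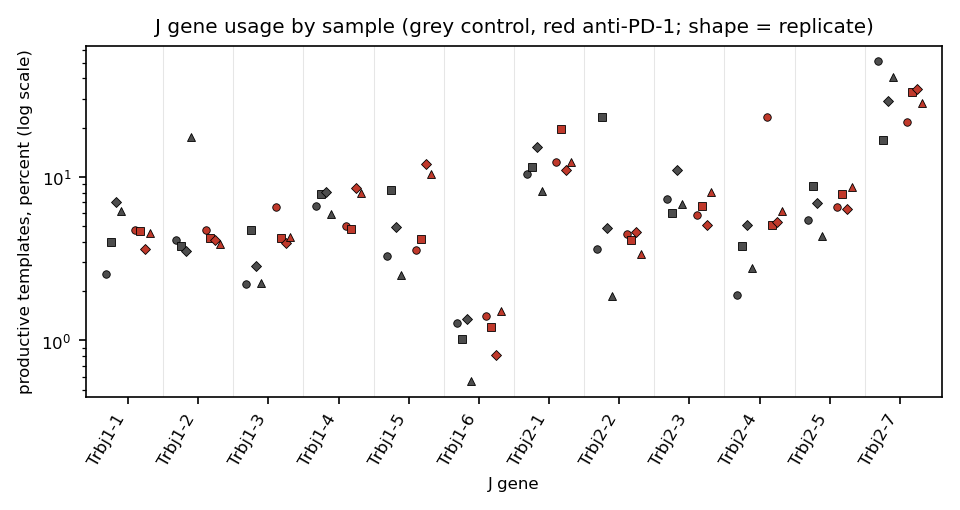
Share of productive templates (vertical axis, percent, log scale) that used each of the 12 J genes tested, with 1 marker per mouse (grey control, red anti-PD-1, shape = replicate). For Trbj2-4 the 4 anti-PD-1 mice lie at 5.11% to 23.1%, above the control mice at 1.90% to 5.11%, and the other 11 J genes overlap.

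The other 11 J genes did not pass the test, with edgeR adjusted p-values of 0.406 to 0.705, and their ranges overlapped. The most used was Trbj2-7, at 34.4% ± 14.7 in control and 29.4% ± 5.87 in anti-PD-1 mice, followed by Trbj2-1 at 11.4% ± 2.95 and 13.9% ± 3.92 (SD, n = 4). Trbj1-2 and Trbj2-2 averaged 7.25% and 8.40% in control mice and 4.23% and 4.15% in anti-PD-1 mice, and each control mean rested on a single mouse (17.6% Trbj1-2 in control replicate 4 and 23.2% Trbj2-2 in control replicate 2). Trbj1-5 stood at 12.0% and 10.4% in anti-PD-1 replicates 3 and 4 and lay at 2.51% to 8.35% elsewhere. A Trbv3 joint ending in DNQAPLF was among the 10 most frequent rearrangements of both these mice. The same held for control replicates 2 and 3 and anti-PD-1 replicate 2. Mean shares of the remaining J genes were 4.94% and 4.41% for Trbj1-1, 3.02% and 4.75% for Trbj1-3, 7.16% and 6.57% for Trbj1-4, 1.05% and 1.24% for Trbj1-6, 7.80% and 6.41% for Trbj2-3, and 6.39% and 7.37% for Trbj2-5, control first. The Trbj2 cluster as a whole made up 71.8% ± 6.16 of control and 71.2% ± 4.91 of anti-PD-1 templates (SD, n = 4, exact permutation p 0.998).

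No V gene passed the test across the 25 that were frequent enough (0 called, 0%), and 4 had an unadjusted p below 0.05 in edgeR, or 16%, each with an adjusted p of 0.242. Trbv16 made up 11.6%, 3.61%, 11.6% and 16.9% of control and 5.64%, 4.90%, 4.97% and 5.67% of anti-PD-1 replicates 1 to 4. Control mice varied most and 3 of them lay above every anti-PD-1 mouse, with a log2 fold change of -1.05 (SE 0.48). Trbv17 made up 1.13%, 0.917%, 1.01% and 0.349% of control and 1.20%, 1.96%, 1.41% and 2.15% of anti-PD-1 replicates 1 to 4. It was the only V gene of the 25, or 4%, whose groups did not overlap, with a log2 fold change of 0.98 (SE 0.44). Over rearrangements its ranges overlapped, at 1.57% to 2.63% in control and 2.42% to 2.87% in anti-PD-1 mice.

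The other V genes below that unadjusted limit rested on 1 clone in the deepest sample. Trbv24 made up 6.10% of anti-PD-1 replicate 3 and 0.397% to 0.946% of the other 7 samples, and the joint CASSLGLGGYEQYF was 86.5% of the Trbv24 templates there. Without the leading Trbv24 joint of each sample, the shares were 0.30% to 0.714% in control and 0.643% to 0.850% in anti-PD-1 mice. Trbv10, a V gene that the RefSeq annotation calls a pseudogene, made up 0.665% of anti-PD-1 replicate 3, of which 98.6% was 1 joint, and at most 0.0420% of the other 7 samples.

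**Figure D5:**
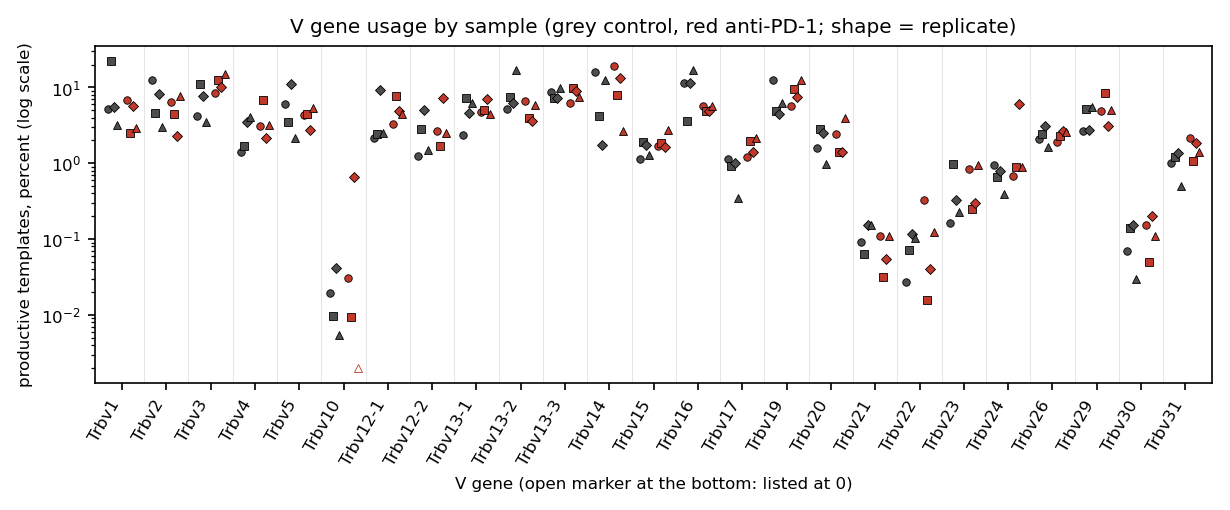
Share of productive templates (vertical axis, percent, log scale) for the 25 V genes tested, with 1 marker per mouse (grey control, red anti-PD-1, shape = replicate; an open marker at the bottom is listed at 0). Groups overlap for 24 of the 25 genes, and Trbv17 is the exception, at 0.349% to 1.13% in control and 1.20% to 2.15% in anti-PD-1 mice.

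The V genes associated with NKT cells did not pass the test. Trbv13-2 averaged 8.99% ± 5.52 in control and 4.98% ± 1.42 in anti-PD-1 mice (SD, n = 4), which is -0.85 on the log2 scale (SE 0.42, adjusted p 0.263 in edgeR), and -0.33 without control replicate 4. Trbv29 averaged 4.04% ± 1.51 and 5.41% ± 2.26 (SD, n = 4), or 0.42 on the log2 scale (adjusted p 0.699 in edgeR), and 0.11 without anti-PD-1 replicate 2. Trbv1 averaged 9.09% ± 8.97 and 4.49% ± 2.11 (SD, n = 4, edgeR adjusted p 0.393), and its control mean was carried by replicate 2 at 22.5%, where the Trbv1 joint printed above was 81.1% of Trbv1 templates.

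Of 246 V-J pairs tested, none passed the adjusted threshold in edgeR (0%), and 46 had an unadjusted p below 0.05, or 18.7%, of which 35 were higher in anti-PD-1 mice. By DESeq2 with its own size factors 6 pairs were called, and all 6 were lower in anti-PD-1 mice. Compared with the edgeR fit, log2 fold changes of the pairs moved by a median of -0.405 under it, with both method and scaling changed. With TMM factors in edgeR, where the scaling alone changed, they moved by a median of -0.403. With DESeq2's own size factors 21 of 44 pairs with an unadjusted p below 0.05 were higher, against 17 of 37 with TMM factors in edgeR. With DESeq2 on productive templates, where the scaling was kept, 40 of 54 were higher. Groups did not overlap for 9 of the 246 pairs, or 3.66%. The 10 pairs of lowest p had an adjusted p of 0.205 each, and in several of them a single clone made up most of the highest value. Trbv24-Trbj2-7 was at 5.55% in anti-PD-1 replicate 3 and at 0.0654% to 0.279% in the other 7 samples, and Trbv14-Trbj2-4 was at 17.6% in anti-PD-1 replicate 1 and at 0.0344% to 0.242% in the others. Trbv4-Trbj2-7 was at 5.38% in anti-PD-1 replicate 2, of which 88.2% was the joint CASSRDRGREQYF with 5 deleted V bases, and at 0.238% to 0.805% elsewhere. Trbv13-2-Trbj1-2, the pair of 10 that was lower, was at 13.3% in control replicate 4 and at 0.193% to 1.12% elsewhere.

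Trbj2-4 was the J gene in 3 of those 10 pairs, with Trbv14, Trbv15 and Trbv1. Trbv15-Trbj2-4 made up 0.0346%, 0.0631%, 0.0944% and 0.0617% of control and 0.121%, 0.677%, 0.0896% and 0.864% of anti-PD-1 replicates 1 to 4. It was high in anti-PD-1 replicates 2 and 4, where 1 joint was 88.8% and 93.5% of it, and replicate 3 lay within the control range. Trbv1-Trbj2-4 was at 1.86% in anti-PD-1 replicate 1 and at 0.0134% to 0.223% elsewhere. The other 4 pairs were Trbv23-Trbj1-4, Trbv1-Trbj1-5, Trbv29-Trbj2-2 and Trbv19-Trbj1-6, with log2 fold changes of 3.07, 2.36, 1.89 and 1.93, and no anti-PD-1 mouse had more than 1.05% of any of them.

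Among CDR3 length classes, the short loops of 33 nucleotides came nearest to the threshold. Of 11 length classes tested, none passed the adjusted threshold in edgeR (0%), and 2 had an unadjusted p below 0.05, or 18.2%. Loops of 33 nucleotides made up 1.50%, 1.67%, 1.97% and 1.38% of control and 3.71%, 6.09%, 1.98% and 2.69% of anti-PD-1 replicates 1 to 4. The groups did not overlap, which was so for 1 of 11 classes, or 9.09%, but the margin between control replicate 3 and anti-PD-1 replicate 3 was 1.97% against 1.98%. The log2 fold change was 1.15, with SE 0.36 and an adjusted p of 0.0536 in edgeR, and the class was called at equal depth (1.34, adjusted p 0.016) and without anti-PD-1 replicate 3 (1.36, adjusted p 0.0135), both by edgeR. It was not called without anti-PD-1 replicate 2 (0.78, adjusted p 0.149), in the 8 samples alone (adjusted p 0.138) or without rearrangements of at least 1% (0.57, adjusted p 0.0565), also by edgeR. No single joint carried it, since the leading joint was 9.33% to 23.7% of this class in anti-PD-1 and 5.19% to 25.3% in control mice. Over rearrangements the class held 3.06% to 3.78% in control and 3.37% to 4.05% in anti-PD-1 mice. The other class of the 2, of 57 nucleotides, made up 0.404% of anti-PD-1 replicate 4 and at most 0.0808% elsewhere. The most used lengths were 42, 39 and 45 nucleotides, at 27.8%, 20.9% and 18.8% in control and 27.9%, 27.2% and 15.5% in anti-PD-1 mice (edgeR adjusted p 0.987, 0.273 and 0.404).

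The mean CDR3 length per template was 41.9 ± 1.14 nucleotides in control and 40.8 ± 0.372 in anti-PD-1 mice (SD, n = 4), a difference of -1.06 (SE 0.481, exact permutation p 0.117). Control replicate 4, at 40.4 nucleotides, was below all anti-PD-1 mice. With 1 mouse left out the difference ran from -0.706 to -1.57. The largest was without control replicate 4 (unadjusted exact permutation p 0.00286), an omission singled out after its values were seen. Per rearrangement the means were 42.1 ± 0.274 and 42.0 ± 0.0866 (SD, n = 4, exact permutation p 0.692).

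As whole profiles, mice of the same group could not be shown to be nearer to each other than mice of different groups. The mean distance in V gene usage, on a scale from 0 for equal to 1 for disjoint profiles, was 0.338 within control, 0.236 within anti-PD-1 and 0.290 between them, with an exact permutation p of 0.429, one-sided over 35 splits. The same exact permutation test gave p = 0.371 for J genes, 0.229 for V-J pairs, 0.286 for CDR3 lengths and 0.371 for CDR3 sequences, with an adjusted value of 0.429 for each of the 5. The excess between groups had an unadjusted exact permutation p of 0.0286 for V genes without control replicate 2 (0.0333) and for CDR3 lengths without control replicate 4 (0.0538). CDR3 sequences differed almost entirely between mice, at a distance of 0.981 within control and 0.959 within anti-PD-1. Any pair of the 8 mice shared 0.27% to 1.72% of nucleotide rearrangements, as a share of either mouse.

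Some CDR3 amino acid sequences were frequent in several anti-PD-1 mice. They are described without a test, since the choice uses the values of anti-PD-1 mice. Of the 50 most frequent CDR3 sequences of each anti-PD-1 mouse, 8 recurred in at least 2 of the 4 mice, and the same rule gave 6 in control mice. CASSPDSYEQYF, mostly joined from Trbv29 and Trbj2-7, was among the 50 in all 4 anti-PD-1 mice, at 1.98%, 1.25%, 0.455% and 2.83% of productive templates in replicates 1 to 4. In control replicates 1 to 4 it was at 0.05%, 0.0558%, 0 and 1.08%, where 0 allows a share of up to 0.00787%. Only control replicate 4 was within the anti-PD-1 range. Its most frequent joints in anti-PD-1 replicates 1 and 4 differ in bases and in V trimming, with 5 and 6 V bases deleted, and give the same amino acids.
Anti-PD-1 replicate 1, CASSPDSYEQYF, Trbv29: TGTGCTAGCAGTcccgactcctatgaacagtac
Anti-PD-1 replicate 4, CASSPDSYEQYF, Trbv29: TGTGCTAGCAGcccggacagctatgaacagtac
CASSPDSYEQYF was built from 30 nucleotide rearrangements over the 8 mice and was present in 15 of all 16 samples.

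A sequence from Trbv16 and Trbj2-7 with an untrimmed V end was among the 50 in all 4 anti-PD-1 and 3 control mice, at 0.960%, 1.37%, 1.56% and 0.265% in anti-PD-1 and 9.14%, 1.18%, 1.05% and 0.00268% in control replicates 1 to 4. Its share spanned a wider range in control mice. The joint printed here was its most frequent one in anti-PD-1 replicate 3 and in control replicates 1 and 3.
Trbv16 and Trbj2-7: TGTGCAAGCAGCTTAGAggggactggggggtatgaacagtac
 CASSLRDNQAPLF, from Trbv3 and Trbj1-5, reached 2.93% and 5.92% in anti-PD-1 replicates 2 and 3, was at 0.00311% and 0 in replicates 1 and 4, and lay at 0.233% to 1.54% in control mice. The leading joint of anti-PD-1 replicate 4, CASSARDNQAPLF at 7.58%, and a joint of control replicate 2, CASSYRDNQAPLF at 4.98%, differ from it by 1 amino acid and use the same V and J genes.
Anti-PD-1 replicate 2, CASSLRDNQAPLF: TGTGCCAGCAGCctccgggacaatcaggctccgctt
Anti-PD-1 replicate 3, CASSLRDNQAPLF: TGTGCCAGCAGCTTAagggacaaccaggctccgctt
Control replicate 2, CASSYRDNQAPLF: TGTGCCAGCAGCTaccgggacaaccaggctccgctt
These joints were set side by side after their values were seen.

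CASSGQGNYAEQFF and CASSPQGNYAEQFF are 1 amino acid apart and came mostly from Trbv13-3, with Trbj2-1. They were at 2.86% and 2.65% in anti-PD-1 replicate 2 and at 0.583% and 0.547% in replicate 3. In replicates 1 and 4 they lay at 0.00311% to 0.0139%, which is 1 to 4 templates. Their most frequent joints in replicate 1 used Trbv13-1 and Trbv29. In control mice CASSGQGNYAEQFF was at 1.06% in replicate 1, 0.0697% in replicate 4 and 0 in the others. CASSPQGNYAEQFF was found in control replicate 2 alone, at 0.00243%, which is 1 template that used Trbv14. The remaining 3 sequences were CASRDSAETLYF, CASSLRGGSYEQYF and a joint of Trbv1 and Trbj1-2, with means of 0.163%, 0.241% and 0.165% in anti-PD-1 and 0.0955%, 0.143% and 0.168% in control mice, and their ranges overlapped. At equal depth 9 sequences met the rule in anti-PD-1 mice and 6 in control mice, and among the 100 most frequent 17 and 14 did. The order turned among the 20 most frequent, with 3 in anti-PD-1 and 4 in control mice, and for nucleotide rearrangements, with 2 and 4. Without anti-PD-1 replicate 1, 2 or 3 the anti-PD-1 count was 5, 4 or 3.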

How the data were processed

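TCRβ rearrangements were read from tumor T cells of 16 mice, 1 sample per mouse and 4 per group, by the immunoSEQ mouse TCRB survey. Per the file headers, the service behind the deposited files gave template counts, which are starting molecules estimated from reads with a correction for primer bias and rounded to whole numbers, and 1 entry per unique rearrangement of 87 nucleotides. Its calls of V, D and J genes, lengths, insertions and deletions were used as deposited; retained and deleted V bases added up to a constant for each V gene in at least 99.97% of entries. V bases restored by chance count as retained. Labels name total RNA. The study's results name DNA, whereas its methods for TCR sequencing name RNA. Whether templates are transcripts or gene copies is thus not settled. The aligner and genome build are not given in the sources used here, so no coordinates are given. Genes were named through RefSeq GRCm38.p6 (33 of 33 V and 14 of 14 J genes matched), and near-identical V genes such as those of the Trbv12 and Trbv13 families can share reads. No column of another sample was present.

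Templates were summed per V gene, J gene, V-J pair and CDR3 length, and fitted with the edgeR 4.0.16 quasi-likelihood test over all 16 samples, with productive templates as library size and features of at least 10 templates in at least 4 samples, in R 4.3.3. Called means a Benjamini-Hochberg adjusted p under 0.05. The 30 single-value measures were tested with scipy 1.17.1 and numba 0.67.0 in Python 3.11.15 by the exact permutation form of a Dunnett comparison, adjusted over the 30. In simulated data, this test fell below 0.05 in 4% of 100 sets without a difference and in 89% with a shift of 3 SD; edgeR recovered 2 of 2 changed V genes among 25, and 1 of 25 changed V-J pairs among 246, at a log2 change of 2. A low count of V-J calls thus says little. Wilson intervals and limits from 3 templates cover counting error only. V genes and V-J pairs were named by adjusted and then by unadjusted p under 0.05, to at most 10 each; J genes were all named; lengths were the 3 most used and those with unadjusted p under 0.05; clones were the leading rearrangement of each mouse and any CDR3 that ranked in the top 50 of 2 or more anti-PD-1 mice; and Trbv13-2, Trbv29 and Trbv1 were named whatever their p. Members, lists and rules were chosen with earlier results of these data known. Other alternatives were TMM factors, DESeq2 1.42.0, other filters, unique or out-of-frame rearrangements, equal depth (20 draws for single values), the 8 samples alone, a replicate block, and each replicate left out. Leaving out the 1, or the 10, most frequent rearrangements, the large clones alone, the 100 most frequent, V gene means and out-of-frame V deletions were added after seeing the data.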

Additional observations from a re-analysis of the deposited data

Results flagged for a closer look

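Of 144 groups of 4 mice examined, 23 (16%) held a mouse that stood apart from the other 3 by Dixon's criterion. Its rate of about 1 in 20 by chance holds for independent values with a normal spread. Many items here are shares, overlap each other or were named for a low p, so the 16% cannot be set against that rate. No explanation was tested for any of them.

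Among single values, V-D insertions per rearrangement were lowest in anti-PD-1 replicate 1 at 1.766, and J deletions per rearrangement were highest in anti-PD-1 replicate 2 at 2.929. V deletions per template stood apart in anti-PD-1 replicate 4 at 2.989, above the other 3 anti-PD-1 mice and on the side away from control mice. Deletions at the 5′ end of D per template were lowest in control replicate 1, at 2.672.

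Several shares of gene usage stood apart in a single mouse. In anti-PD-1 replicate 3 these were Trbv10 at 0.6654%, Trbv24 at 6.096% and Trbv24-Trbj2-7 at 5.552%, and Trbj1-1 was low there at 3.649%. In anti-PD-1 replicate 1 they were Trbj2-4 at 23.12%, Trbv14-Trbj2-4 at 17.63%, Trbv1-Trbj2-4 at 1.858% and Trbj1-3 at 6.52%. In anti-PD-1 replicate 2 they were Trbj2-1 at 19.67% and Trbv4-Trbj2-7 at 5.38%, and in anti-PD-1 replicate 4 loops of 57 nucleotides at 0.4039%. In control mice they were Trbv1 at 22.46% and Trbj2-2 at 23.19% in replicate 2, and Trbj1-2 at 17.57% and Trbv13-2-Trbj1-2 at 13.28% in replicate 4.

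Of the CDR3 sequences frequent in several anti-PD-1 mice, 4 stood apart in a control mouse. The Trbv16-Trbj2-7 sequence was at 9.137% in control replicate 1, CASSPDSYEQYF at 1.081% in control replicate 4 and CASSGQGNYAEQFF at 1.061% in control replicate 1. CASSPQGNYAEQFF was at 0.002426% in control replicate 2, which is 1 template.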

How the results depend on the processing

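Over all results and alternatives, 1084 values kept their direction and side of the threshold (or moved by less than the stated limits), 97 reversed, 23 moved, 14 lost and 12 gained a call; causes were not tested except where the alternative itself leaves out clones or samples. The difference in V deletions per template kept its direction throughout and was 0.892 to 0.98 with 1 mouse left out; it lost its call at 0.157 without rearrangements of at least 1%, at 0.146 without the 10 most frequent, at 0.427 over the 100 most frequent and at 0.5 in out-of-frame templates. With the replicate number as a block it was 0.943 with an exact permutation p of 0.125, the smallest 4 pairs can give. The block and the check of pairing use the replicate numbers of the sample titles, which differ from the numbers inside the files (2, 3, 6 and 7 for control and 1, 2, 3 and 7 for anti-PD-1 replicates 1 to 4). By title, same-numbered mice did not deviate together, since only 1 of the 4 pairs had a correlation over 0.1 for V genes (-0.223 to 0.170), and not every sample correlated best with its own number. The number of J genes called was 0 with TMM factors, unique rearrangements, rearrangements of at least 1% left out, the 8 samples alone, the block, or the most frequent rearrangement left out, 2 in out-of-frame templates, and 0 to 1 with 1 mouse left out. For Trbj2-4 the log2 fold change was 1.49, 0.0377, 0.30, 1.55, 1.42 and 0.68 under the first 6 of these, and 0.71 to 1.82 with 1 mouse left out. V genes called numbered 4 of 25 in out-of-frame templates, namely Trbv3, Trbv14, Trbv21 and Trbv30, where 9 had an unadjusted p below 0.05. Without rearrangements of at least 1% they numbered 2 of 25, Trbv10 and Trbv19. V-J pairs called numbered 6 of 246 with DESeq2's own size factors. CDR3 lengths called numbered 2 of 11 by DESeq2 on productive templates and 1 of 10 at equal depth. They numbered 1 of 11 without anti-PD-1 replicates 3 and 4, and 0 to 1 with 1 mouse left out. Log2 fold changes reversed in out-of-frame templates for Trbv10 (-1.86), Trbv16 (0.0299), Trbv13-2 (0.0204), Trbv24-Trbj2-7 (-0.21), Trbv1-Trbj1-5 (-0.93), Trbv29-Trbj2-2 (-0.42), Trbv13-2-Trbj1-2 (1.74), Trbj1-1 (0.67), Trbj1-3 (-0.32), Trbj1-4 (0.60), Trbj1-5 (-1.22), Trbj2-2 (0.76), Trbj2-5 (-0.55) and Trbj2-7 (0.13). They reversed without rearrangements of at least 1% for Trbv24 (-0.0383), Trbv29 (-0.0153), Trbv14-Trbj2-4 (-1.95), Trbj1-5 (-0.43), Trbj1-6 (-0.0668), Trbj2-7 (0.0398) and 39 nucleotides (-0.0299). They reversed over unique rearrangements for Trbv14-Trbj2-4 (-0.45), Trbv1-Trbj1-5 (-0.0728), Trbj1-1 (0.0155), Trbj1-3 (-0.0435), Trbj1-6 (-0.0213) and Trbj2-5 (-0.0107). They reversed without the most frequent rearrangement for Trbj1-2 (0.0125) and Trbj2-2 (0.0738), without anti-PD-1 replicates 3 and 4 for Trbj1-5 (-0.31) and 42 nucleotides (-0.14), with DESeq2's own size factors for Trbj2-5 (-0.001) and 42 nucleotides (-0.37), and with TMM for 42 nucleotides (-0.0043). Single values reversed without rearrangements of at least 1%, per template, for V-D insertions (-0.0155), D-J insertions (-0.0656), 5′ D deletions (0.0576), 3′ D deletions (-0.0673) and the Trbj2 share (2.67); without anti-PD-1 replicates 3 and 4 for the Trbj2 share (3.6) and the class of 0.1% to 1% (-0.221); and without single-template rearrangements for D-J insertions per rearrangement (0.019). With 1 mouse left out, log2 fold changes ran from -0.11 to 0.10 for 42 nucleotides, 0.78 to 1.36 for 33 nucleotides (called without anti-PD-1 replicate 3), -1.04 to -0.33 for Trbv13-2, 0.11 to 0.61 for Trbv29, -0.38 to 0.0537 for Trbj1-1, -1.005 to 0.15 for Trbj1-2, -0.28 to 0.0004 for Trbj1-4, -1.35 to 0.26 for Trbj2-2, -0.45 to 0.0256 for Trbj2-7 and -2.25 to 5.08 for Trbv14-Trbj2-4. Differences ran from -0.0589 to 0.0327 for the SD of length, -1.57 to -0.706 for length per template, -2.82 to 2.13 for the Trbj2 share, -3.33 to 0.667 for the number of rearrangements of at least 1%, -0.0767 to 4.47 for the class of 0.1% to 1%, -0.0355 to 0.0022 and -0.616 to -0.324 for 5′ D deletions per rearrangement and per template, -0.00522 to 0.0466 and -0.233 to 0.179 for J deletions, -0.056 to -0.0281 and -0.0331 to 0.182 for D-J insertions, -0.089 to 0.172 for V-D insertions per template, -3.08 to 1.77 for out-of-frame templates, and, in log2, -0.857 to 0.256 for productive templates and -0.218 to 0.604 for unique rearrangements. Excess distances between groups over those within ran from -0.0235 to 0.0333 for V genes, -0.0224 to 0.0349 for J genes, -0.00826 to 0.0486 for V-J pairs, -0.0147 to 0.0538 for lengths and -0.00501 to 0.0105 for CDR3 sequences, and over unique rearrangements they were -0.00152, -0.000139, -0.000461, -9.17e-05 and -0.00158, with -0.000885 by the Jaccard index. Frequent CDR3 sequences shared by anti-PD-1 mice numbered 3 of the top 20 (control 4), 17 of the top 100 (control 14), 2 as nucleotide rearrangements (control 4), and 3 to 8 with 1 mouse left out. Depth limits rare features most in anti-PD-1 replicate 4.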
